A study of Rattus norvegicus with 6 samples.

Results

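The synaptonemal complex genes examined here were Sycp1, Sycp2, Sycp3, Syce1, Syce2, Syce3, Tex12, Hormad1 and Hormad2, a list of 9 genes named for their known role in this structure. In the count tables of rat testis, which list 21170 genes, 8 of the 9 were found under these names. Syce2 was not analysed here. The tissue came from rats of the SD laboratory strain: 3 control animals, called normal in the labels, and 3 animals exposed to psychological stress from terrifying sound, called post-stressed. Each animal gave 1 single-cell library, made with the Singleron GEXSCOPE kit, and the labels set the groups apart by this treatment alone. The sources used here give neither age nor the length of the exposure.

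The synaptonemal complex is a ladder of protein that joins homologous chromosomes along their length during the prophase of meiosis. SYCP2 and SYCP3 build the axes, which become the lateral elements of the ladder, and SYCP1 forms the transverse filaments that bridge them. SYCE1, SYCE2, SYCE3 and TEX12 make up the central element, where filaments from both sides meet, and the HORMA-domain proteins HORMAD1 and HORMAD2 mark axes that have not yet paired. In the testis the complex is built in early spermatocytes, is complete at pachytene and is taken apart before the first division, so spermatids, the haploid cells that follow, have none.

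The libraries held 11744 cells in all, with 2342, 1801 and 2453 cells in the control replicates, numbered 1 to 3, beside 409, 2506 and 2233 in the stressed ones. Total counts lay between 16756543 in stressed replicate 1 and 114984746 in control replicate 3, and the median count per cell between 27987 and 41632. Pairs of libraries shared at most 1 cell barcode. Cells were clustered without the synaptonemal complex genes and without other meiotic genes, and clusters were named from marker genes as like a cell type. This gave 20 spermatogonia-like, 41 early spermatocyte-like, 1316 spermatocyte-like, 4209 round spermatid-like cells and 5870 cells like elongating spermatids, and 288 cells of cluster 14, led by Apoe, Fos and Selenop, that stayed unnamed. Stressed replicate 1 stood apart: it was the smallest library and gave 226 of these 288 unnamed cells and 23 of the 1316 spermatocyte-like cells.

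The early spermatocyte-like cells were cluster 15, with 13, 13 and 0 cells from the control replicates in their order and 1, 11 and 3 from the stressed ones. Of the 8 early spermatocyte markers, 6 had counts there: Dazl, Tex101, Meioc, Zcwpw1 and Ythdc2 at 188 to 932 CPM and Meiosin at 24.0 CPM. The other two, the meiotic entry gene Stra8 and Tex15, had no count there and stood at 228 and 203 CPM in the spermatogonia-like cells. Of the spermatocyte markers, Psma8 and Piwil1 were higher in these cells, at 3592 and 1150 CPM, than in any other cluster. Mybl1, Cdc20 and Tdrd5 were also highest there. Ccna1, Aurka, Tpx2, Ccnb2, Pttg1, Mael and Ybx3 were lower there than in both spermatocyte-like clusters, 11 and 4. Ccna1 stood at 1.55 CPM, against 177 and 325 CPM in clusters 11 and 4, and Pttg1 at 347, against 972 and 558 CPM. Markers of other cells were found too. The 8 stromal markers summed to 495 CPM, of which Dcn gave 295 and Sparcl1 193 CPM. Col1a1 was at 0, as was Lum, which was at or near 0 in every cluster. The macrophage markers summed to 550.4 CPM, most of it Apoe and Selenop, with C1qa and Csf1r at 0. In clusters 11 and 4, described next, the stromal markers summed to 12.2 and 8.69 CPM and the macrophage markers to 80.1 and 90.1 CPM. In a run without the 5% highest doublet scores, 67 cells formed a cluster with Hormad1, Psma8 and Piwil1 among its leading genes. It was named spermatocyte-like, and its stromal and macrophage markers summed to 18.5 and 63.7 CPM. The part of these stromal and macrophage markers in the levels of cluster 15 was not tested. The spermatocyte-like cells were 347 cells of cluster 11 and 969 cells of cluster 4. Psma8 and Piwil1 were among the leading genes of cluster 11, and Tpx2 and Aurka among those of cluster 4. Tpx2 did not set the 2 clusters apart, at 664 CPM in cluster 11 and 600 CPM in cluster 4, and Aurka was at 278 and 333 CPM. A level in CPM is a gene's part of the summed counts of a group of cells, so it is a share of the RNA of that group: a lower level cannot be told from more RNA of other genes. Because the clusters are made from the same cells, differences between clusters are descriptions, given with no test, and levels are compared within a gene and not between genes.

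All 8 genes were detected, and 7 of the 8 reached their highest pooled level in the early spermatocyte-like cells. The exception was Syce1, which was highest in cluster 11. Of all 8140 genes with at least 10 CPM in 1 of the clusters 15, 11 and 4, 46.2% were higher in cluster 15 than in clusters 11 and 4. The other clusters did not enter this share. Compared in the same way, 7 of the 8 synaptonemal complex genes were highest in cluster 15. In the early cells the pooled level was 2748 CPM for Sycp1, 2315 CPM for Sycp2, 2212 CPM for Sycp3 and 2373 CPM for Hormad1. In the spermatogonia-like cells the same genes stood at 124, 62.1, 38.4 and 149.7 CPM, from 20 cells in all. The name of those cells rested on 4 supporting markers. Of the spermatogonia list, Crabp1, Uchl1, Sohlh1 and Ccnd2 stood at 771, 714, 166 and 96.8 CPM there, higher than in any other cluster. Zbtb16 and Kit were at 3.65 CPM each, Nanos3 and Etv5 at 0, and Id4 at 25.6 CPM, below its 422 CPM in the early cells. The spermatogonia-like cells also held elongating spermatid markers at 21261 CPM, stromal markers at 924 CPM and macrophage markers at 765 CPM.

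**Figure D1:**
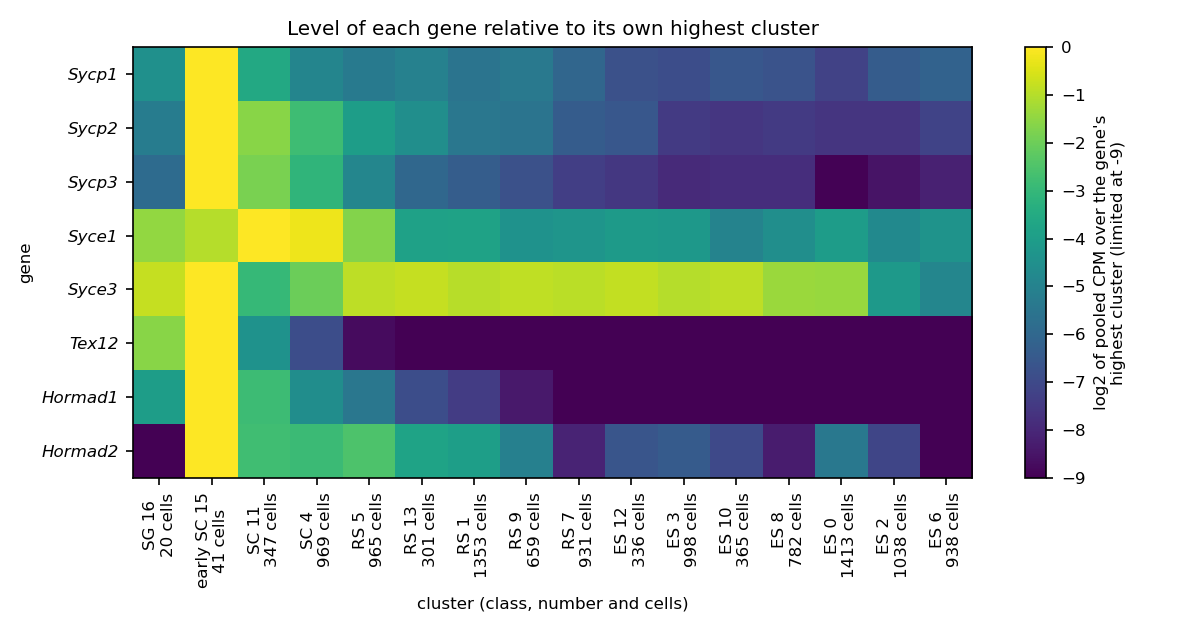
Colour gives the level of each gene (row) in each cluster (column, with its class and number of cells) as the log2 of its pooled CPM over the same gene's highest cluster, with values under -9 drawn as -9. SG is spermatogonia-like, SC spermatocyte-like, RS round spermatid-like and ES elongating spermatid-like. Columns are ordered by Piwil1, Tnp1 and Acrv1 within the classes and are not a time axis. Syce1 peaks in cluster 11, and Syce3 stays high through the round and most elongating spermatid-like clusters.

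Sycp1, the transverse filament gene, fell further from the early cells to cluster 11 than Sycp2, Sycp3 and Hormad1 did. In the 3 libraries with at least 10 early cells, control replicates 1 and 2 and stressed replicate 2, it stood at 2882, 2696 and 2312 CPM. In cluster 11 it stood at 208, 291, 317 and 91.9 CPM in the 4 libraries with at least 20 cells, which were the same 3 and stressed replicate 3. Within a library the early level was 9.27 times that of cluster 11 (median of 3, range 7.29 to 13.9). From cluster 11 to cluster 4 it fell further in 4 of 4 libraries, by a median ratio of 2.66. After meiosis counts remained: round spermatid-like cells held 51.7, 64.3 and 54.1 CPM in the controls, against 86.5, 73.8 and 63.2 CPM in the stressed libraries, and elongating spermatid-like cells 20.3 to 35.0 CPM.

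Sycp2 and Sycp3, the axial and lateral element genes, kept more of their level into cluster 11. Sycp2 stood at 2315, 2257 and 2399 CPM in the early cells and at 732, 1219.5, 883 and 449 CPM in cluster 11, and the ratio within a library was 2.72 (range 1.85 to 3.16). Sycp3 stood at 2702, 2310.1 and 1452 CPM and then at 609, 993, 691 and 444 CPM, a ratio of 2.33 (range 2.10 to 4.44). Both genes were higher in cluster 11 than in cluster 4 in 4 of 4 libraries, by median ratios of 2.34 and 2.48. They then dropped into the round spermatid-like cells in 6 of 6 libraries, by 7.08 times for Sycp2 (range 5.17 to 8.39) and 10.6 times for Sycp3 (range 7.82 to 13.6), against 2.31 times for Sycp1 (range 1.39 to 3.24). In elongating spermatid-like cells Sycp3 was at 4.44 to 11.7 CPM and Sycp2 at 10.3 to 21.2 CPM. Sycp3 overlaps Chpt1 in the RefSeq table of assembly GRCr8, and Chpt1 went the other way, from 45.0 CPM in the early cells to 204 CPM in cluster 2, an elongating cluster. The sources used here do not state whether counting used the strand, so counts of overlapping genes are uncertain, most of all for Sycp3 in the spermatid clusters, where its own level was low.

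Among the central element genes the patterns differed. Syce1 was at 146, 80.2 and 192 CPM in the early cells and at 304, 262, 194 and 329 CPM in cluster 11, so it was lower in the early cells in 3 of 3 libraries, with a ratio of 0.481 (range 0.306 to 0.989). It stayed near that level in cluster 4, at 228 ± 42.4 CPM (SD, n = 5), and fell into round spermatid-like cells by 9.02 times (median of 6 libraries, range 6.41 to 21.9).

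Tex12 was found mainly in the early cells. It stood at 111, 80.2 and 116 CPM there, at 4.97, 9.29, 7.50 and 0 CPM in cluster 11 and at 34.7 CPM in the pooled spermatogonia-like cells. Cluster 4 held 0.909 CPM when pooled, and the summed elongating spermatid-like cells of a library held 0 to 5 counts. Tex12 overlaps Il18, which was at 4.65 CPM in the early cells.

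Syce3 had a trough in meiosis. It stood at 337, 341 and 168 CPM in the early cells, at 61.5, 50.01, 24.2 and 18.8 CPM in cluster 11 and at 82.1 ± 20.05 CPM (SD, n = 5) in cluster 4. It was higher again in cluster 5, a round spermatid-like cluster, at 179.9 ± 50.7 CPM (SD, n = 5). Within a library cluster 5 exceeded cluster 4 in 5 of 5 cases, by a median of 2.36 times, and the whole round spermatid-like class exceeded the spermatocyte-like class in 6 of 6, by 2.73 times. The following did not differ beyond their spread: the means of the 5 round clusters and of elongating clusters 12, 3 and 10 lay between 162 and 188 CPM with SDs of 15.1 to 50.7 CPM. Elongating clusters 8 and 0 were lower, at 122 ± 22.0 and 122 ± 24.2 CPM (SD, n = 4 each). Lowest were cluster 2 at 20.3 ± 5.48 CPM (SD, n = 5) and cluster 6 at 9.65 ± 8.52 CPM (SD, n = 4).

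The count of Syce3 for each count of Sycp2 was 0.0685 to 0.218 in the spermatocyte-like cells of the 6 libraries, 2.004 to 2.83 in round and 6.64 to 9.50 in elongating spermatid-like cells. The ratios of the 3 classes did not overlap. From round to elongating spermatid-like cells the ratio rose while both genes fell in their mean over 6 libraries. Syce3 went from 173 to 122 CPM and Sycp2 from 70.3 to 14.6 CPM, so this step is not a rise of Syce3.

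Hormad1 and Hormad2 also led in the early cells. Hormad1 stood at 2337, 2430.4 and 1944 CPM there and at 299.5, 543, 341 and 237 CPM in cluster 11, a ratio of 5.70 (range 4.48 to 7.80). It was higher in cluster 11 than in cluster 4 in 4 of 4 libraries, by 3.19 times, and in spermatocyte-like than in round spermatid-like cells in 6 of 6, by 9.46 times. Hormad2 was at 47.0, 95.2 and 46.0 CPM in the early cells and at 8.51, 27.9, 4.43 and 4.80 CPM in cluster 11. From cluster 11 to cluster 4 Hormad2 had no common direction: 3 of 4 libraries were higher in cluster 4. The ratio of cluster 11 to cluster 4 was 0.889 (median of 4, range 0.616 to 2.54). The pooled levels were 8.50 and 8.04 CPM, from 118 and 283 counts. Cluster 5 still held 9.04 ± 3.36 CPM (SD, n = 5). No count of Hormad2 was found in the spermatogonia-like cells. Hormad1 overlaps Golph3l in the same RefSeq table, which was at 1.55 CPM in the early cells and 13.9 CPM in cluster 4.

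**Figure D2:**
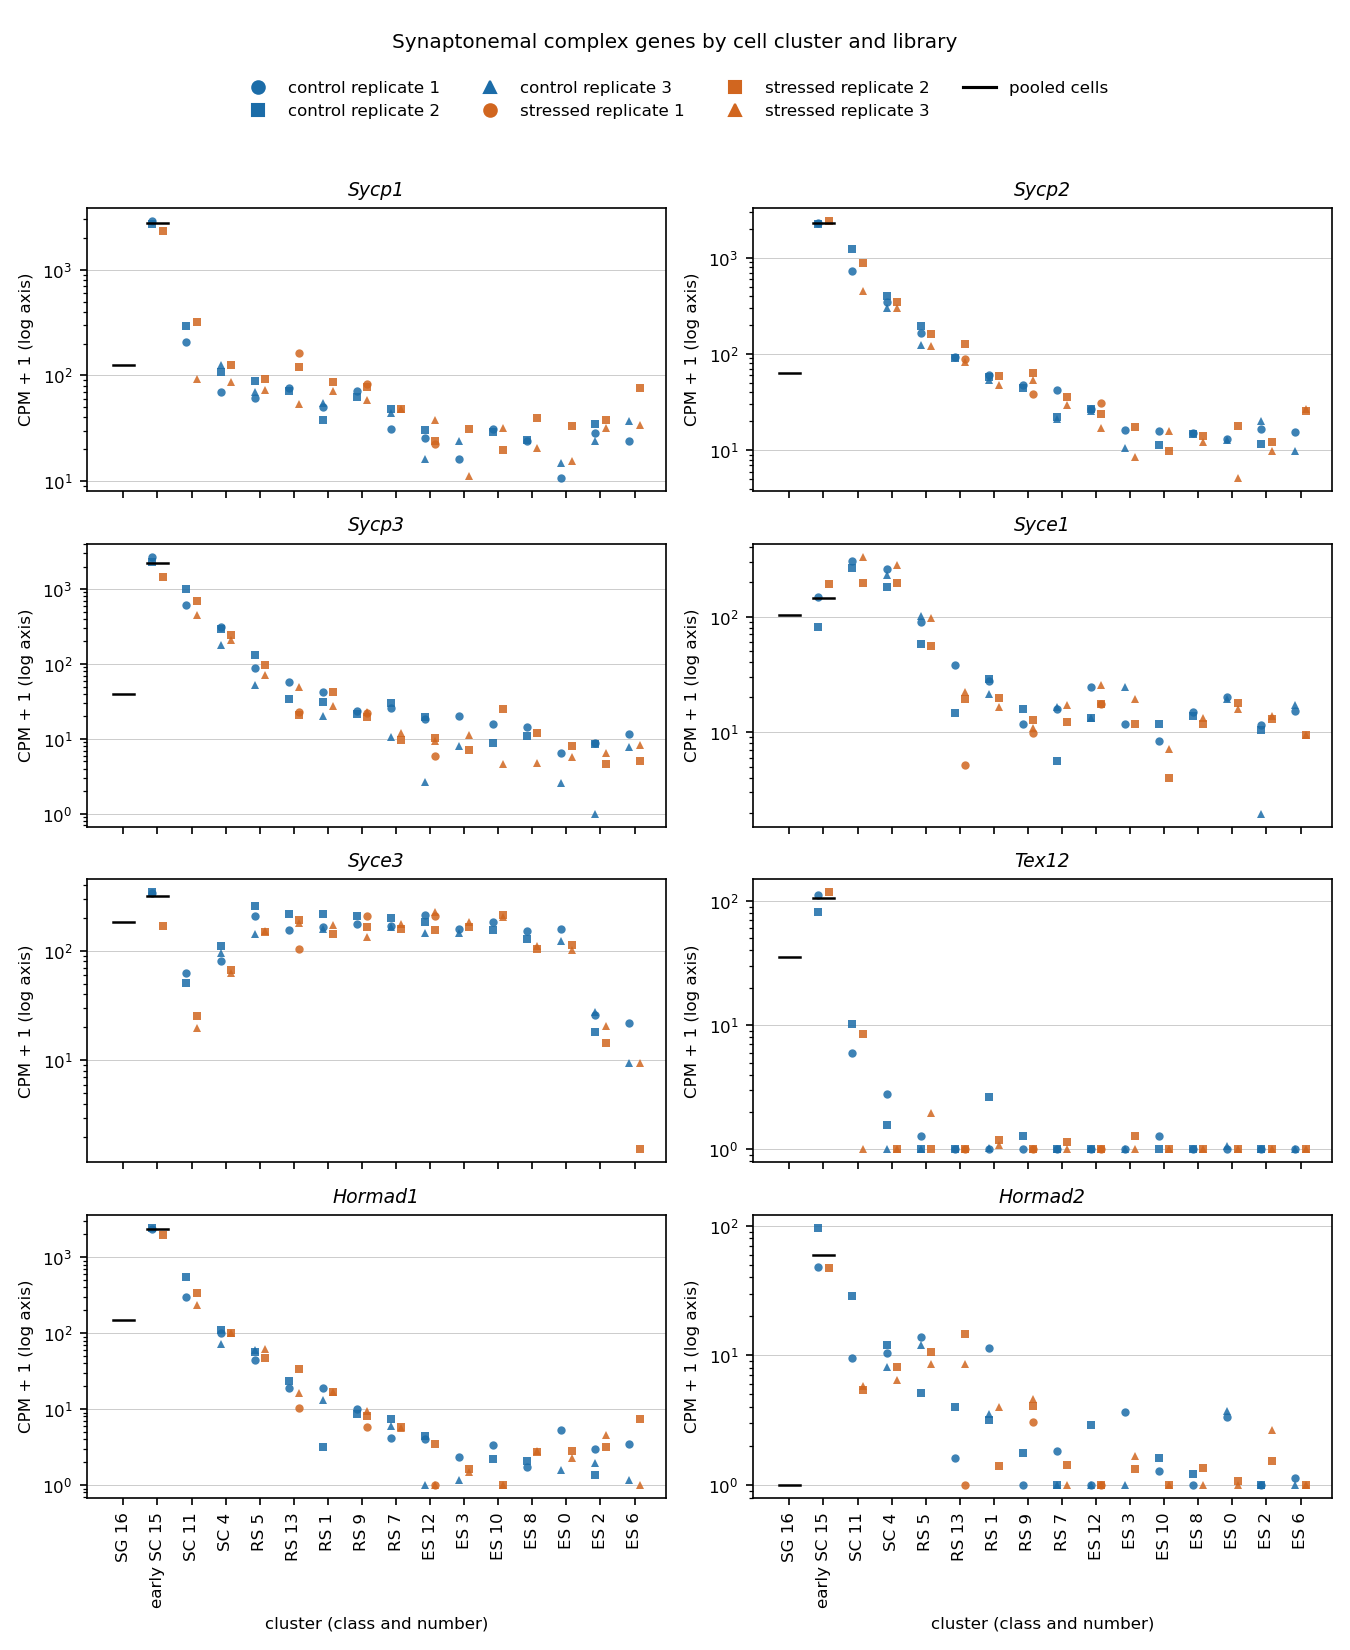
Each panel is 1 gene and each point the CPM plus 1 (log axis) of 1 library in 1 cluster, blue for control and orange for stressed libraries, with libraries under 20 cells left out (under 10 in the early cluster). The black bars are pooled levels of the spermatogonia-like and early clusters. Libraries follow the same course from cluster to cluster, with Sycp1, Sycp2, Sycp3 and Hormad1 falling more than 10-fold from cluster 15 to the elongating clusters and Syce3 low in clusters 11 and 4.

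Cell by cell, 4 genes were found throughout the early cluster. Their pooled levels there, 2212 to 2748 CPM, make a count in nearly every thinned cell likely, so this does not show that the cells were uniform. After thinning each cell to 10000 counts, Sycp1, Sycp2, Sycp3 and Hormad1 each had a count in 41 of 41 early cells (Wilson 95% interval 91.4% to 100%), and all 4 were found together in every one. All 4 were found together in 36.3% of the cells of cluster 11, 8.57% of cluster 4, 0.428% of the round and 0% of the elongating spermatid-like cells. In the spermatocyte-like class Sycp2 had a count in 76.8% of thinned cells, Sycp3 in 71.7%, Syce1 in 67.0%, Hormad1 in 42.2%, Sycp1 in 39.9% and Syce3 in 23.3%. The elongating spermatid-like cells, which have no complex, gave shares of 7.73%, 4.38%, 6.34%, 0.835%, 13.8% and 31.2% for the same genes. Median depths before thinning were alike, 32813 counts per spermatocyte-like and 33176 per elongating spermatid-like cell. Without thinning the spermatocyte-like shares were 85.6%, 83.1%, 81.0%, 52.4%, 51.0% and 32.0%. Tex12 had a count in 51.2% of thinned early cells and 1.06% of spermatocyte-like cells, and Hormad2 in 34.1% and 4.79%. In the thinned early cells Syce1 had a count in 61.0% and Syce3 in 70.7%.

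**Figure D3:**
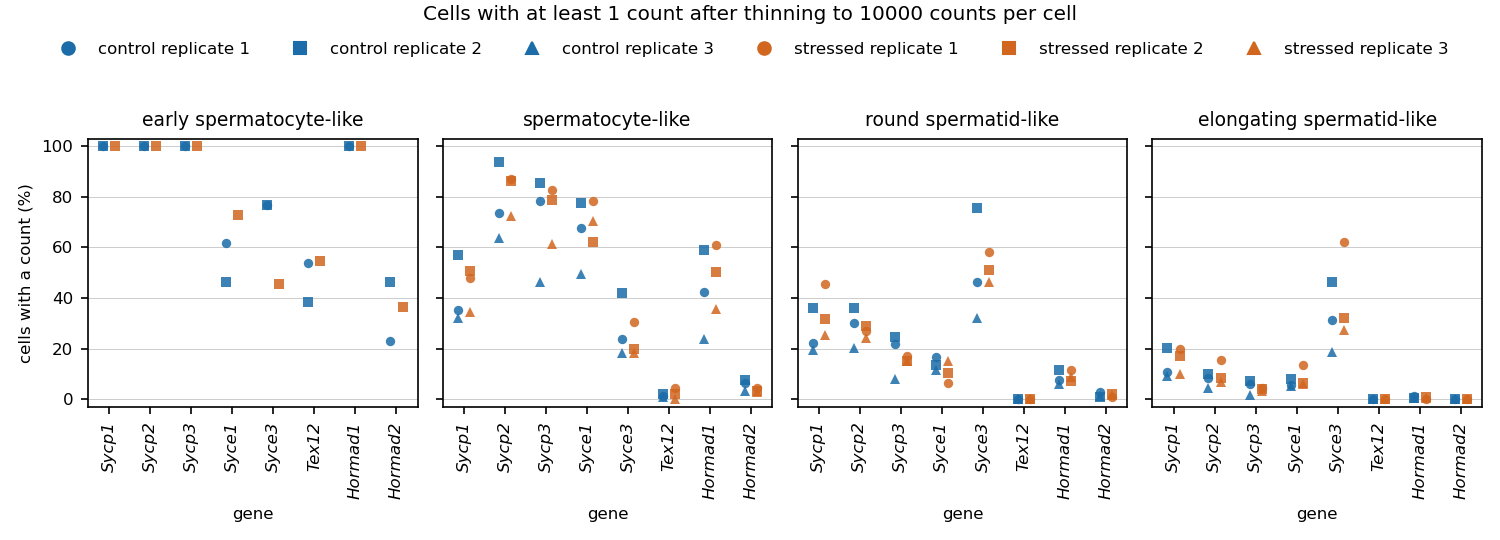
Each point is the percentage of cells of 1 library with at least 1 count of a gene after thinning to 10000 counts per cell, by class, blue for control and orange for stressed libraries. All early cells carry Sycp1, Sycp2, Sycp3 and Hormad1, and Syce3 is found in more spermatid-like than spermatocyte-like cells. Control and stressed points overlap for each of the 8 genes in the spermatocyte-like class.

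The promoters of 6 of the 9 genes were in the RefSeq promoter table of assembly GRCr8: Sycp1, Sycp2, Sycp3, Tex12, Hormad1 and Hormad2. Each entry runs from 250 bases before to 50 bases after the gene's start. Because these genes peaked together in the early cells, the 5 promoters that hold an E2F-type match are shown, 5′ to 3′ on the gene's strand. Capitals mark the E-box CACGTG and the E2F-type site TCCCGC, which reads GCGGGA where it lies on the opposite strand.
Sycp1 (chr2:193145131-193145430, minus strand): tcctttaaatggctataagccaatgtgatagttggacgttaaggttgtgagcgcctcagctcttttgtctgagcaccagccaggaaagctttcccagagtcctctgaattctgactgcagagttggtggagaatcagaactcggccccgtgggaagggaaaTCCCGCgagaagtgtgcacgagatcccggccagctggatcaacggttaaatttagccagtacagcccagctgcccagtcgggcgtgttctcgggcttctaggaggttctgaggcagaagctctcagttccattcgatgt
Sycp2 (chr3:185876443-185876742, minus strand): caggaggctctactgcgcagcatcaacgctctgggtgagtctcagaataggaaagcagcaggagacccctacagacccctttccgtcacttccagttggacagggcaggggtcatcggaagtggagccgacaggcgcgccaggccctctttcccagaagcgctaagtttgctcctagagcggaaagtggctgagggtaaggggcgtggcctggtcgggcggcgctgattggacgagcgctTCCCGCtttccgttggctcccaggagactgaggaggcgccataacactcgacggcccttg
Sycp3 (chr7:24761226-24761525, plus strand): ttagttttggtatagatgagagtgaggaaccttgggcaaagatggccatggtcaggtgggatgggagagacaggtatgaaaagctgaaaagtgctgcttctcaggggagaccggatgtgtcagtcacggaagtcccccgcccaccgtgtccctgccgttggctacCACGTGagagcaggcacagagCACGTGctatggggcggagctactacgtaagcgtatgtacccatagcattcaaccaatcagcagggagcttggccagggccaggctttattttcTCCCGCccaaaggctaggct
Tex12 (chr8:59809509-59809808, minus strand): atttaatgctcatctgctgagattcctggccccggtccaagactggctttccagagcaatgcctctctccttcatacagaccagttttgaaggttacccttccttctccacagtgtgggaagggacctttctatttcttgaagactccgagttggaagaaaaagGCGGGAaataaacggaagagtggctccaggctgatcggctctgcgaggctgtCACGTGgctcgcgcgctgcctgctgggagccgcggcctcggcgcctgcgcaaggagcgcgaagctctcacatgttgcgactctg
Hormad1 (chr2:185805422-185805721, plus strand): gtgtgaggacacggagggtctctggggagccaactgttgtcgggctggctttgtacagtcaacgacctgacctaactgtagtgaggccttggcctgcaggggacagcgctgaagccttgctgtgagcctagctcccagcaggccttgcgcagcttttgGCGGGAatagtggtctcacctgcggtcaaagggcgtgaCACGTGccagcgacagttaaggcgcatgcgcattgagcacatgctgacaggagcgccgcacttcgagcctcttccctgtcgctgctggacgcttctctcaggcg
Both strands were searched for letters only. The E2F-type letters were in 5 of the 6 promoters and in 18.7% of all 33469 promoters of the table. The E-box was in 3 of the 6, with 2 copies in Sycp3 and 1 each in Tex12 and Hormad1, and in 6.42% of all promoters. All 3 also held the E2F-type letters, a pair found in 1.78% of all promoters. The CRE TGACGTCA was in 0 of the 6 and in 1.83% of all, the MYB letters AACNGTT were in 2 of the 6 (Sycp1 and Hormad1) and in 4.66%, and the STRA8 letters CNCCTCAG were in 3 of the 6 (Sycp1, Sycp2 and Hormad2) and in 8.86%. No matches in these 6 promoters overlapped each other. A match is a description of the letters in this window, and binding was not measured.

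Over the 15 clusters with at least 50 cells, the log2 profiles of Sycp2, Sycp3 and Hormad1 had Pearson correlations of 0.98 (Sycp2 with Sycp3), 0.98 (Sycp2 with Hormad1) and 0.96 (Sycp3 with Hormad1), while Syce3 gave 0.10 or less with each of the others. The clusters share the same 6 libraries, and the early cluster is not among the 15. Among 8229 genes, the profiles nearest to Sycp2 were Kctd18, Vamp3 and Srp14 (r = 0.995, 0.992 and 0.991), and nearest to Sycp3 were Bin3, Eef1b2 and Arl6ip1 (r = 0.991, 0.989 and 0.989). For Hormad1 they were Pfdn4, Tmem35b and Zfp518a (each r = 0.991), for Sycp1 Mbtd1, Tlk2 and Tgif1 (r = 0.972, 0.968 and 0.963) and for Syce1 Vps37c, Reep4 and Vpreb3 (r = 0.985, 0.979 and 0.979). For Syce3 they were Btbd1, Phyhipl and Memo1 (r = 0.966, 0.965 and 0.956). For Tex12 they were Pld6, Rpia and Sec22b (r = 0.983, 0.981 and 0.979). Over these 15 clusters Tex12 had a mean of 5.44 CPM in cluster 11 and at most 0.471 CPM elsewhere, so its correlations rest mainly on cluster 11. For Hormad2 they were Faap24, Slc26a5 and a gene known by an identifier only (r = 0.980, 0.979 and 0.980). Nearest to the mean of the 8 were Arl6ip1, Tdrd9, Zfp518a, Tmem35b, Fam216a, Psmd1, Birc2, C10H5orf58, Olr1644 and Tuba3b (r = 0.988 to 0.992).

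Other meiotic genes, in 5 lists of 86 genes of which 75 were found, can be set beside the same 3 clusters. Among genes with at least 10 CPM in 1 of them, 9 of 12 genes of the axis and cohesin list were highest in the early cells, such as the meiotic cohesin Smc1b at 1304 CPM there, 403 CPM in cluster 11 and 525 CPM in cluster 4. Recombination genes did so in 19 of 22 cases, such as the strand-exchange partner Psmc3ip at 474, 212 and 371 CPM. Telomere attachment genes were highest in the early cells in 7 of 10 cases, such as the CDK2 activator Spdya at 740.3, 542 and 462 CPM. Silencing and asynapsis genes were so in 8 of 9 cases, such as the histone variant H2ax at 257, 74.2 and 24.1 CPM. Genes of desynapsis and division were so in 6 of 14 cases: cyclin Ccnb1 was at 32.6, 171 and 438 CPM, and the chaperone Hspa2, needed to take the complex apart, at 1249.6, 1381 and 1281 CPM. The background is again 46.2% of all genes, and in both cases highest means highest among these clusters alone.

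The study compared stressed with control rats. None of the synaptonemal complex genes passed the quasi-likelihood test of edgeR at a Benjamini-Hochberg adjusted p under 0.05. In spermatocyte-like cells 0 of 8 were called, against 0.0205% of all 9764 genes tested, and 1 of 8, Syce3, had an unadjusted p under 0.05, against 2.18% of all genes. DESeq2 called 0 of 8, against 0.0307% of all genes, and gave 1 of 8 an unadjusted p under 0.05. The share of all genes at that unadjusted level was not counted for DESeq2, here or in the other classes, so its unadjusted counts have no background. The median log2 change of the 8 was -0.05, beside -0.03 for all genes tested, with 3 of the 8 higher and 5 lower in the stressed libraries. All 8 adjusted p-values of edgeR were 0.999. The p-values rest on the spread between animals as the labels give them.

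**Figure D4:**
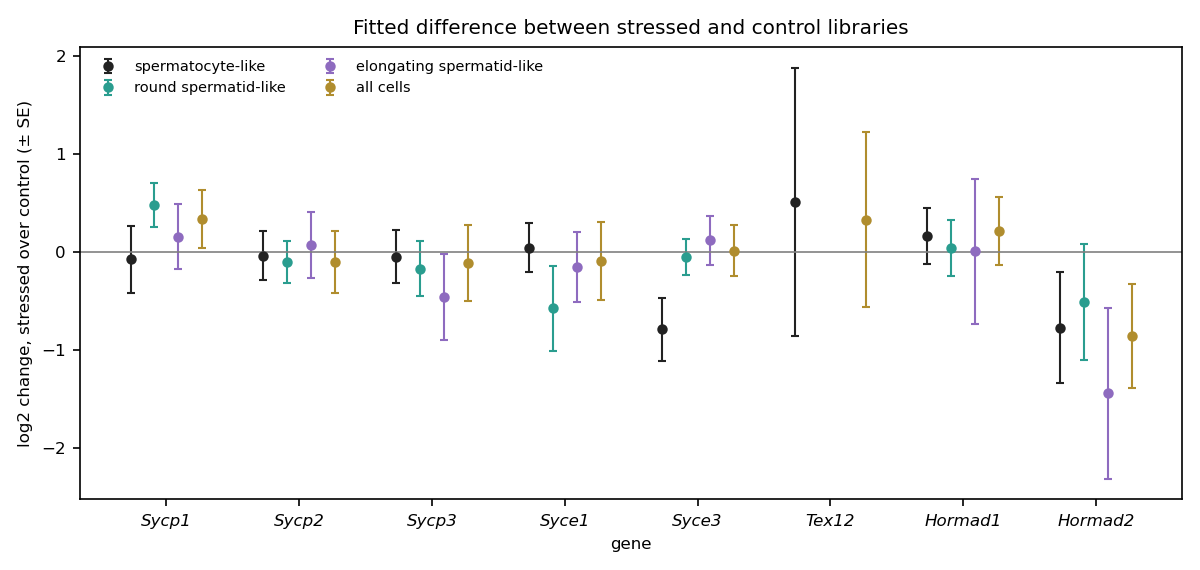
Points are log2 changes, stressed over control, fitted by edgeR for each gene, with bars of 1 standard error, in 4 sums of each library: the 3 classes named in the key and all cells (3 control and 3 stressed libraries). Tex12 passed the filter on low counts in 2 of the 4 sums. None passed the test, and the point farthest from 0 in units of its standard error is Syce3 in spermatocyte-like cells.

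Sycp1 in spermatocyte-like cells stood at 111, 159 and 175 CPM in the controls, against 121, 196 and 87.6 CPM after stress (replicates 1 to 3 in order here and below). The highest and the lowest library were both stressed, and the fitted log2 change was -0.08 (SE 0.34, edgeR adjusted p = 0.999). Sycp2 stood at 460.1, 638 and 391 CPM in the controls, against 504, 549 and 336 CPM in the stressed libraries. Its groups overlapped almost fully, with a log2 change of -0.04 (SE 0.25). Sycp3 stood at 402, 491 and 241 CPM and at 363, 411 and 266 CPM, with the stressed values inside the range of the controls and a log2 change of -0.05 (SE 0.27). Leaving out 1 library at a time moved these changes between -0.46 and 0.17 for Sycp1, -0.17 and 0.16 for Sycp2 and -0.24 and 0.16 for Sycp3, so none had a stable direction.

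Syce1 stood at 273, 204 and 249 CPM in the controls, against 228, 194 and 292 CPM in the stressed libraries. The groups overlapped, the log2 change was 0.04 (SE 0.25), and it lay between -0.15 and 0.19 with 1 library left out. Hormad1 stood at 161, 235 and 134 CPM and at 247, 191 and 133 CPM, with a log2 change of 0.16 (SE 0.29) that was -0.01 without stressed replicate 1. Tex12 rested on few cells: it stood at 2.74, 3.08 and 1.05 CPM in the controls, against 8.95, 2.82 and 0 CPM in the stressed libraries. All 7 counts of stressed replicate 1 and all 6 of control replicate 3 came from 1 cell each. For the 0 of stressed replicate 3, 3 counts in its sum would be 0.264 CPM. That is no upper limit, because 1 cell can give more than 3 counts. Its log2 change of 0.51 (SE 1.37) was -0.61 without stressed replicate 1.

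Syce3 was the gene with the clearest difference of the 8, short of the test. It stood at 73.8, 92.1 and 85.0 CPM in the controls, against 34.5, 49.7 and 51.5 CPM in the stressed libraries, or 83.6 ± 9.21 and 45.3 ± 9.34 CPM (SD, n = 3 each). The groups did not overlap, as held for 7.19% of all genes in this direction. The fitted log2 change was -0.79 (SE 0.32), with an unadjusted p of 0.0304 and an adjusted p of 0.999 by edgeR. It lay between -0.90 and -0.62 with 1 library left out and was -0.77 by DESeq2. Adding the early spermatocyte-like cells to the class brought it to -0.50.

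The class held the clusters in different proportions. Cluster 11, where Syce3 was lower than in cluster 4, made up 27.7%, 28.1% and 14.0% of the spermatocyte-like cells in the controls, against 39.1%, 38.0% and 20.5% in the stressed libraries, so these shares overlapped, and their part in the difference was not tested. Within cluster 4 Syce3 stood at 79.1, 109 and 95.3 CPM in the controls, against 65.1 and 61.8 CPM in stressed replicates 2 and 3, and the 14 cells of stressed replicate 1 gave 62.6 CPM. The 3 control and 2 stressed libraries with at least 20 cells did not overlap, as held for 11.5% of all genes tested there in the same 5 libraries. Within cluster 11 it stood at 61.5 and 50.01 CPM in control replicates 1 and 2 and at 24.2 and 18.8 CPM in stressed replicates 2 and 3, against a background of 26.3% of all genes for such an order of 2 against 2 libraries. The log2 changes were -0.50 (SE 0.31, unadjusted p 0.135) in cluster 4 and -1.22 (SE 0.47, unadjusted p 0.0319) in cluster 11, where edgeR called 0 of 7 and 0 of 8 of the genes and 0% of all genes tested. An unadjusted p under 0.05 was found for 0 of 7 in cluster 4, against 3.07% of all genes, and for 1 of 8 in cluster 11, against 4.54%.

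Markers of other cells in the spermatocyte-like sums stood as follows. The 16 elongating spermatid markers summed to 6190 to 8782 CPM in the controls, against 6301 to 11781 CPM in the stressed libraries, and the 14 round spermatid markers to 1581 to 2364 and 1254 to 1745 CPM. The 13 macrophage markers summed to 79.3 to 81.2 CPM in the controls, against 75.1, 96.9 and, in stressed replicate 1, 317 CPM. Their part in the difference of Syce3 was not tested, and without stressed replicate 1 its log2 change was -0.62.

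**Figure D5:**
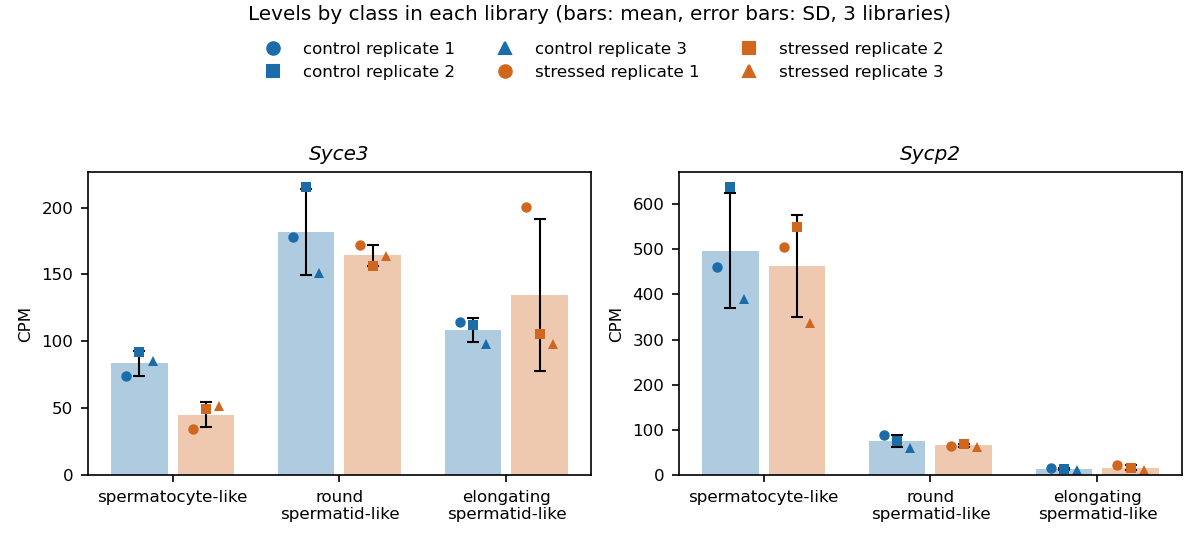
Bars are means and error bars SDs of the CPM of 3 libraries (points) in 3 classes of cells, blue for control and orange for stressed, on axes that start at 0. Syce3 in spermatocyte-like cells is at 73.8 to 92.1 CPM in the controls, against 34.5 to 51.5 CPM in the stressed libraries, while its spermatid values and all values of Sycp2 overlap between the groups.

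Whether the effect on Syce3 differed between spermatocyte-like and round spermatid-like cells was tested directly. In round spermatid-like cells Syce3 stood at 178, 216 and 151 CPM in the controls, against 172, 156 and 164 CPM in the stressed libraries, with a log2 change of -0.05 (SE 0.19). The difference of the 2 effects was -0.79 (SE 0.34, unadjusted p 0.0402, edgeR adjusted p = 1.00) in a model with the library as a block. It was not called, and neither were the other 7 genes or any of the 12742 genes tested (0%). Of the 8 genes, 1 had an unadjusted p under 0.05 in this test, against 2.63% of all genes.

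Hormad2 in spermatocyte-like cells stood at 9.20, 15.8 and 7.0 CPM in the controls, against 6.39, 6.15 and 5.28 CPM in the stressed libraries. Every stressed value was below every control value, as held for 7.19% of all genes, but the counts behind them were few, 40 to 171 in the controls, against 5, 48 and 60 in the stressed libraries. The exact Poisson 95% interval of stressed replicate 1, 2.08 to 14.9 CPM, spans most of the control values. This interval takes counts as independent and is too narrow here, as 1 cell gave 3 of the 5 counts. In control replicate 3 a single cell gave 22 of the 40 counts. The log2 change was -0.77 (SE 0.57, unadjusted p 0.201, edgeR adjusted p = 0.999).

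After meiosis, edgeR called 0 of 7 genes in round spermatid-like cells, against 0.0163% of 12268 genes, and 0 of 7 in elongating spermatid-like cells, against 0.00927% of 10787. In the sum of all cells of a library 0 of 8 were called, against 0.00689% of 14519 genes. None of these genes had an unadjusted p under 0.05 in these sums, against 2.69%, 1.5% and 1.38% of all genes in the same order. DESeq2 called 0 of them, against 0.0653%, 0.00928% and 0.0321%, and gave 0 an unadjusted p under 0.05. Tex12 did not pass the filter on low counts in the spermatid-like sums. The medians of the log2 changes were -0.10 in round and 0.00 in elongating spermatid-like cells, beside 0.00 and -0.02 for all genes.

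Sycp1 in round spermatid-like cells was at 51.7, 64.3 and 54.1 CPM in the controls, against 86.5, 73.8 and 63.2 CPM in the stressed libraries. The stressed values were higher but for 1 pair of libraries. On TMM-scaled CPM, the scale of the fit, every stressed value was above every control value, as held for 3.33% of all genes, and the log2 change was 0.48 (SE 0.23, unadjusted p 0.0616, edgeR adjusted p = 0.999). Syce1 was at 42.6, 21.3 and 38.3 CPM and at 10.4, 18.9 and 34.3 CPM there, with overlapping groups and a log2 change of -0.58 (SE 0.43). Hormad2 in elongating spermatid-like cells was at 0.985, 0.467 and 1.02 CPM in the controls, against 0, 0.265 and 0.414 CPM in the stressed libraries, without overlap, as held for 3.71% of all genes in this direction. On TMM-scaled CPM, the scale of the fit, these groups overlapped, with a log2 change of -1.44 (SE 0.87, unadjusted p 0.124). These levels came from 13 to 46 counts in 5 libraries and from none in stressed replicate 1.

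The share of spermatocyte-like cells with a count, after thinning, did not pass a test either. Sycp2 was found in 77.0% ± 15.4 of control and 81.9% ± 8.30 of stressed cells (SD, n = 3 each), and Syce3 in 28.0% ± 12.3 and 22.8% ± 6.64. For Hormad2 the shares were 5.75% ± 2.19 and 3.56% ± 0.692. All 8 genes had an adjusted p of 0.9 by 2-sided exact permutation tests of the group means, and 3 against 3 libraries cannot give an unadjusted p below 0.1. For Syce3 the shares of single libraries were 23.9%, 41.8% and 18.2% among controls, beside 30.4%, 19.7% and 18.3% after stress, so its share overlapped where its level did not.

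The other meiotic genes gave no calls: in spermatocyte-like cells 63 were tested, with 0 called by edgeR, against 0.0205% of all genes, and by DESeq2, against 0.0307%. An unadjusted p under 0.05 was found for 2 of the 63 by edgeR, close to its 2.18% of all genes. DESeq2 also gave 2, with no share of all genes counted. Axis and cohesin genes had a median log2 change of -0.04 over 15 genes, recombination genes -0.01 over 17, telomere genes -0.09 over 9, division genes 0.04 over 14 and silencing genes -0.21 over 9, beside -0.03 for all genes. The pair with an unadjusted p under 0.05 by edgeR, named after their values were seen, were the meiotic cohesin Rec8 and Sgo2, which protects cohesin at centromeres. Rec8 stood at 56.1, 49.9 and 92.2 CPM in the controls, against 20.5, 33.2 and 37.0 CPM in the stressed libraries, with a log2 change of -1.03 (SE 0.40, unadjusted p 0.0254, edgeR adjusted p = 0.999). Sgo2 stood at 116, 111 and 56.5 CPM and at 171, 139 and 122 CPM, with a log2 change of 0.67 (SE 0.30, unadjusted p 0.0461, edgeR adjusted p = 0.999). Among 64 tested in round spermatid-like cells, 0 were called by either tool, against 0.0163% and 0.0653% of all genes. The unadjusted p was under 0.05 for 1 by edgeR, against 2.69%, and for 2 by DESeq2, again with no share of all genes counted. The 1 from edgeR was the crossover helicase Hfm1, at 0.346 to 0.832 CPM in the controls, against 1.27 to 3.70 CPM in the stressed libraries.

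The 3 most abundant genes of each list in spermatocyte-like cells were not called. Smc1b was at 511 ± 265 CPM in control and 480.1 ± 108 CPM in stressed libraries (SD, n = 3 each), Skp1, a ubiquitin ligase subunit, at 603 ± 68.0 and 568 ± 93.1 CPM, and Wapl, which releases cohesin, at 342 ± 59.9 and 322 ± 29.7 CPM. Psmc3ip was at 371 ± 136 and 275 ± 25.9 CPM, and the crossover gene Prr19 at 89.2 ± 38.8 and 106 ± 19.4 CPM. Spdya was at 489.6 ± 13.1 and 494 ± 30.1 CPM, Hspa2 at 1314 ± 173 and 1125 ± 163 CPM, and Ccnb1 at 350.5 ± 12.5 and 319 ± 120 CPM. The remaining named genes, Brme1, Dynlt1, Terb1, Plk4, Topbp1, H2ax and Atf7ip, had log2 changes between -0.58 and 0.55.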

How the data were processed

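Single-cell RNA was measured in testis of 3 control and 3 stressed rats, 1 library each, with the Singleron GEXSCOPE kit, per the labels' protocols. Aligner, counter, build and cell filter: not given in the sources used here. The authors deposited whole-number counts per gene and cell for each library, with no word in the labels on reads or molecules. They also deposited tables in natural log units, which equal ln(1 + x), where x is the count after scaling a cell to 10000, and entered no test.

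All 11744 cells were kept. Clusters were made from 2000 variable genes less mitochondrial, synaptonemal complex and other listed meiotic genes (1965 left), with 30 principal components, 15 neighbours and Leiden resolution 1 (scikit-learn 1.9.0, igraph 0.11.9, leidenalg 0.10.2, Python 3.11.15). No correction between libraries was made. Clusters were named from 12 marker lists with at least 3 supporting markers. A cluster with the elongating spermatid markers at the level of the elongating clusters took no somatic name, a choice made after the data were seen. Scrublet in scanpy 1.11.5 called 73 cells (0.622%) doublets, and they were left in.

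Counts were summed per library and class (at least 20 cells) and tested with edgeR 4.0.16 in R 4.3.3 (TMM, filterByExpr, robust quasi-likelihood), adjusted by Benjamini-Hochberg over all genes tested, and with DESeq2 1.42.0. The fit was tested on simulated data. Printed CPM values are not TMM-scaled. The minimum of 10 cells in the early cluster was chosen after the data were seen. Intervals cover counting error only. Named genes were all members, the 3 most abundant genes of each meiotic list in spermatocyte-like cells, any gene called, and the 3 nearest profiles of each member (10 for their mean). The members and lists were chosen with earlier results of these data known. Alternatives were other scalings, filters, cluster settings, a replicate block and leaving out each library.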

Additional observations from a re-analysis of the deposited data

How the results depend on the processing

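No synaptonemal complex gene was called under any alternative run: DESeq2, RLE size factors, no filter on low counts, a replicate block, 3 other cell groupings, adding the early cells, or leaving out 1 library, for which the number called ranged from 0 to 0. In spermatocyte-like cells some fitted log2 changes near 0 turned their sign. At Leiden resolution 2 and with early spermatocyte-like cells (added after the data were seen) Sycp1 was 0.44 and 0.47, Sycp2 0.0368 and 0.0438, and Sycp3 0.12 and 0.13. At resolution 2 no cluster was named early spermatocyte-like, and 75 cells with Hormad1, Psma8 and Dazl among their leading genes were named spermatocyte-like. These settings may thus be much the same change. Without the 5% highest doublet scores no cluster was named early spermatocyte-like either. With 1 library left out the changes ranged from -0.46 to 0.17 for Sycp1, -0.17 to 0.16 for Sycp2, -0.24 to 0.16 for Sycp3, -0.15 to 0.19 for Syce1, -0.61 to 1.31 for Tex12 and -0.00814 to 0.39 for Hormad1. In round spermatid-like cells they ranged from -0.39 to 0.0199 for Sycp3, -0.12 to 0.0661 for Syce3, -0.10 to 0.18 for Hormad1 and -0.88 to 0.0287 for Hormad2. The cause was not tested.

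The labels link control and stressed libraries by replicate number only and do not state a pairing. Same-numbered libraries had correlations of their deviations over all cells of -0.14, -0.01 and 0.21, and differently numbered ones of -0.44 to 0.34. With 3 libraries per group these correlations cannot show whether libraries were paired. With the replicate block 0 genes were called, and in spermatocyte-like cells Tex12 turned to -0.39 while Syce3 was -0.83.

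The difference in the share of spermatocyte-like cells with a count, stressed minus control in percentage points, ranged with 1 library left out from -1.83 to 10.5 for Sycp1, -1.76 to 13.3 for Sycp2, -7.73 to 11.9 for Sycp3, -2.24 to 11.7 for Syce1, -10.03 to 1.77 for Syce3, -0.390 to 1.78 for Tex12 and -1.84 to 15.6 for Hormad1. Without thinning Tex12 was -0.140. Total counts were lowest in stressed replicate 1, with 23 spermatocyte-like cells, where Hormad2 rested on 5 counts. The median count per spermatocyte-like cell was lowest in stressed replicate 3, at 26556, against 28693 in stressed replicate 1.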
